A study of Mus musculus with 4 samples.

Results

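The 10 genes described here encode transcription factors and mRNA decay factors that are known for keeping lymphocytes at rest. They are the forkhead genes *Foxo1*, *Foxo3* and *Foxp1*, the Kruppel-like factor genes *Klf2*, *Klf3*, *Klf6* and *Klf13*, and the antiproliferative genes *Btg1*, *Btg2* and *Tob1*. They were chosen by name among the 18193 genes measured in sorted follicular helper T (TFH) cells, and all 10 were measured. Each gene was read by the brightest of the probe sets that name it alone (highest mean over the 4 arrays), and its other probe sets are given beside it. In Rictor-null TFH cells, *Foxo1*, *Foxp1*, *Klf2*, *Klf13* and *Btg1* were lower than in WT TFH cells, 5 of the 10, and 0 of the 10 were higher. Over all 18193 genes, 19.7% passed in either direction, 7.19% lower and 12.5% higher, by the same rule (an adjusted p under 0.05 from limma, with Benjamini-Hochberg adjustment over all genes).

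Forkhead box O (FOXO) factors act in the nucleus and are held in the cytoplasm once the kinases AKT and SGK1 have phosphorylated them. Rictor defines mTOR complex 2 (mTORC2), which phosphorylates both kinases. In naive T cells, FOXO1 is known to maintain the IL-7 receptor and, through KLF2, the receptors that keep cells recirculating, and in TFH cells FOXO1, FOXP1 and KLF2 are known as restraints on differentiation. BTG and TOB proteins bring the CCR4-NOT deadenylase to mRNAs, and BTG1 and BTG2 are known to hold naive T cells in quiescence.

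The cells came from spleens on day 8 after infection with LCMV Armstrong, a strain of lymphocytic choriomeningitis virus that causes an acute infection, and were put on 1-colour Affymetrix mouse arrays. The Rictor-null mice carried loxP-flanked *Rictor* alleles and a *Cd4*-Cre transgene (Rictor fl/fl *Cd4*-Cre, 2 arrays). The WT mice were their Rictor fl/fl littermates (2 arrays), so that the groups share the floxed alleles and the infection and differ in the Cre. *Cd4*-Cre acts from thymic development onward, so CD8+ T cells of the Rictor-null mice lose *Rictor* too. The mice were 6 to 10 weeks old and of both sexes, and by the series' own description at least 5 mice were pooled for each array. The study's legend gives other mouse numbers, and nothing in the sources used here settles which hold.

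The deposited values are probe set intensities on a linear scale, with medians between 19.98 and 20.40 on the 4 arrays. Arrays correlated at 0.998 within both groups and at 0.993 to 0.994 between groups (Pearson's r across probe sets). *Rictor* itself was read by 5 probe sets, the brightest at 267 and 279 in Rictor-null cells, against 334 and 303 in WT cells, and no source used here says which exons they read, so that they do not check the deletion. That call (log2 fold change -0.21, adjusted p = 0.0366 from limma) was lost without the first Rictor-null array (adjusted p = 0.159), the first WT array (0.297) or the second WT array (0.0824), without the trend in mean signal (0.0637), and in the fit over all probe sets (0.0868), where none of the 5 passed. Apart from the arrays, the study reported no detectable *Rictor* mRNA in TFH cells sorted from Rictor-null mice. It also reported that stimulation failed to induce mTORC2 activity in Rictor-null CD4+ T cells. All 8 TFH markers were above the median intensity of all probe sets. Of them, 6 (*Cd4*, *Cd3e*, *Cxcr5*, *Bcl6*, *Pdcd1* and *Il21*) were lower in Rictor-null cells, with 0 higher. The 8 markers summed to 8909.5 to 9203 in Rictor-null cells and 10141 to 10677 in WT cells. Beside these and the following marker counts, 12.5% of all genes were higher and 7.19% lower. Of the markers of other cells, 4 of 9 myeloid markers were higher and 0 lower. They summed to 1072 to 1161 in Rictor-null cells and 791 to 835 in WT cells. *Cst3* carries most of that sum, with means of 701 in Rictor-null cells and 499.6 in WT cells. *Lyz2* (means 107 in Rictor-null and 56.4 in WT cells), *Itgam* (31.2 and 14.3) and *Tyrobp* (36.6 and 23.7) were also higher. The other 5 myeloid markers did not pass. Likewise 3 of 5 CD8 and NK cell markers were higher and 0 lower. Their sums were 525 to 608 in Rictor-null cells and 371 to 375 in WT cells. *Eomes* carries most of that sum, with means of 353 in Rictor-null cells and 230 in WT cells. *Cd8b1* (means 131 in Rictor-null and 86.2 in WT cells) and *Klre1* (48.3 and 21.1) were also higher. *Cd8a* (means 24.5 in Rictor-null and 24.4 in WT cells) and *Ncr1* (10.1 and 11.7) did not pass. Of 7 B cell markers, 2 were higher (*Cd79b* and *Pax5*) and 1 was lower (*Cd22*). The 7 summed to 479 to 488 in Rictor-null cells and 777 to 779 in WT cells. *Cd22* carries that sum, and the other 6 markers summed to 87.6 to 94.8 in Rictor-null cells and 73.9 to 75.1 in WT cells. Of 5 regulatory T cell markers 2 were higher and 1 lower, at 2130.4 to 2132 in Rictor-null cells and 2217 to 2224 in WT cells. *Il2ra* (means 19.3 in Rictor-null and 11.5 in WT cells) and *Tnfrsf18* (1061 and 831) were higher, and *Ikzf2* (1033 and 1361) was lower. *Foxp3*, which defines these cells, did not pass. Both *Foxp3* and *Il2ra* were below the median intensity. Of 7 naive T cell markers 2 were higher (*Il7r* and *Dapl1*) and 3 lower (*Lef1*, *Satb1* and *Actn1*). The 7 summed to 4275 to 4327 in Rictor-null cells and 4161 to 4199 in WT cells. Of 3 erythroid markers, 1 was higher (*Alas2*) and 0 lower. They summed to 35.4 to 35.8 in Rictor-null cells and 28.2 to 29.5 in WT cells. All 3 were below the median intensity, and no marker of any list was at 0. The part of other cells in the results below was not tested, and in such bulk samples fewer cells of a type and less RNA per cell cannot be told apart. Precision is limited by having 2 pools a group. The p-values reflect only the spread between such pools, which limma shares between genes of like mean signal.

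**Figure D1:**
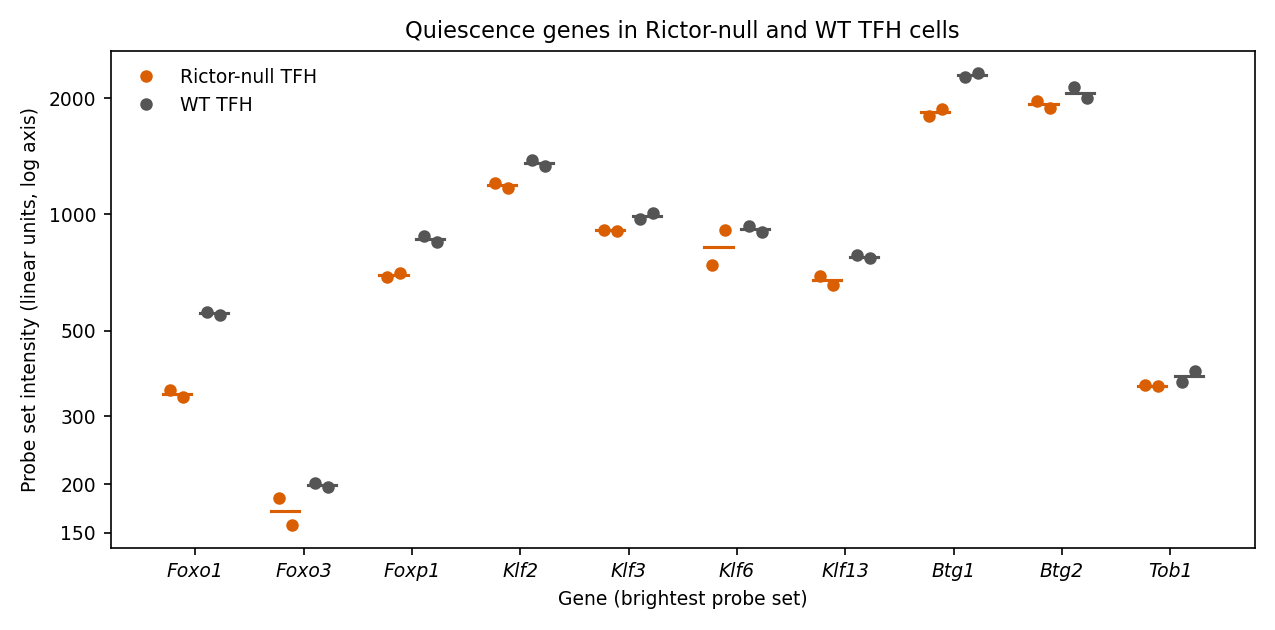
Intensity of each gene's brightest probe set on every array, on a log axis in linear units, with Rictor-null arrays left of WT arrays and a short line at each group mean. Both Rictor-null arrays lie below both WT arrays for every gene but *Klf6*, and *Foxo1* shows the widest gap (343 against 554 on average).

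*Foxo1* had the largest difference of the 10 genes. Its intensities were 350.0 and 336 in Rictor-null cells, against 559 and 548 in WT cells. Both Rictor-null arrays lay far below both WT arrays, and the means of 343 ± 9.68 in Rictor-null cells and 554 ± 7.69 in WT cells (SD, n = 2 each) differ by 38.1%. On the log2(intensity + 16) scale, which understates the change of dim genes, the log2 fold change was -0.67 (95% confidence interval -0.78 to -0.55, adjusted p = 5.28e-06 from limma). Without regard to direction, that difference is larger than those of 99.0% of all genes. The brightest *Foxo1* probe set carries the suffix by which Affymetrix marks probes that can match more than 1 transcript, so the other probe sets bear on it. A further probe set read 185 and 189 in Rictor-null cells and 276 and 281 in WT cells, and another read 121 and 123 in Rictor-null cells and 160.0 and 179 in WT cells. Both also passed the test over all 45037 probe sets (log2 fold changes of -0.54 and -0.43, adjusted p = 0.000558 and 0.00522 from limma), while the faintest, below the median intensity, differed by 0.03. *Foxo1* lies on chromosome 3 at 52268337 to 52350109 in GRCm38.p6.

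*Foxo3*, the other FOXO gene of the set, was read less firmly. Its brightest probe set had intensities of 184 and 157 in Rictor-null cells and 202 and 197 in WT cells. The groups did not overlap, but the Rictor-null arrays spread widely and the difference did not pass (log2 fold change -0.21, 95% confidence interval -0.38 to -0.046, adjusted p = 0.0731 from limma). A second *Foxo3* probe set was lower in Rictor-null cells, at 85.2 and 91.0, against 119 and 120.3 in WT cells. Its log2 fold change was -0.38 (adjusted p = 0.00841 from limma over all probe sets). The third, below the median intensity, differed by -0.08 and did not pass. The brightest probe set passed after median centring (adjusted p = 0.0489) or quantile normalization (0.0447), with dim genes left out (0.0393) and without the first Rictor-null array (log2 fold change -0.32, adjusted p = 0.0136), and it was at -0.11 without the second (adjusted p = 0.459, limma).

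*Foxp1* encodes a forkhead repressor that holds naive CD4+ T cells at rest. Its brightest probe set read 688 and 704 in Rictor-null cells, against 878 and 849 in WT cells. The groups were well apart, with Rictor-null cells 19.4% lower (log2 fold change -0.31, 95% confidence interval -0.41 to -0.20, adjusted p = 0.000627 from limma). *Foxp1* has 8 probe sets, the most of the 10 genes. All 8 were below 0 in log2 fold change, but the other 7 lay only between -0.18 and -0.02 and did not pass. With the mean of all its probe sets, the *Foxp1* difference was -0.15 and the call was lost (adjusted p = 0.0693 from limma).

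**Figure D2:**
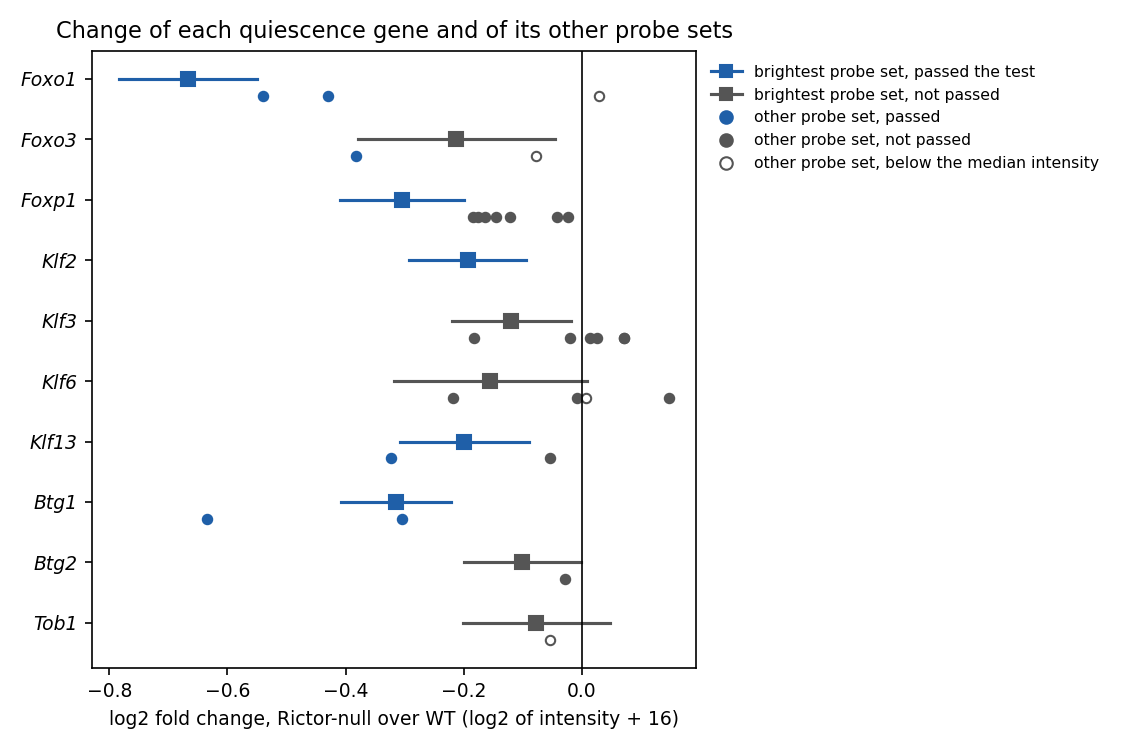
log2 fold change of each gene, Rictor-null over WT, on the log2(intensity + 16) scale. Squares with 95% confidence intervals are the brightest probe sets and circles the others, blue where the test was passed and open where the probe set lies below the median intensity. All 10 squares lie left of 0, and *Btg1* and *Foxo1* have several blue probe sets each.

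Of the KLF genes, *Klf2* and *Klf13* were lower in Rictor-null cells and *Klf3* and *Klf6* did not pass. KLF2 is the factor that drives transcription of the egress receptor S1PR1 in resting T cells. *Klf2* had intensities of 1208 and 1167 in Rictor-null cells and 1383 and 1337 in WT cells. The groups were apart by a modest step of 12.7% (log2 fold change -0.19, 95% confidence interval -0.29 to -0.095, adjusted p = 0.00879 from limma). Only 1 probe set reads *Klf2* alone, so no other probe set checks it, and the call was lost without the first WT array (adjusted p = 0.131) or the second (adjusted p = 0.0784, limma). Its log2 fold change lay between -0.22 and -0.17 in the 4 fits that left out an array.

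*Klf13*, which encodes a factor known for binding GC-rich promoters, was at 693 and 656 in Rictor-null cells and at 783 and 770.3 in WT cells. Every Rictor-null array was below every WT array, and the difference was close to that of *Klf2* (log2 fold change -0.20, 95% confidence interval -0.31 to -0.090, adjusted p = 0.0133 from limma). A second *Klf13* probe set showed a wider gap, with 347 and 344 in Rictor-null cells and 444 and 428 in WT cells. Its log2 fold change was -0.32 (adjusted p = 0.0054 from limma over all probe sets). The third and faintest differed by -0.05 and did not pass. The call of the brightest was lost in 3 of the 4 fits that left out an array, namely without the second Rictor-null array (adjusted p = 0.0714), the first WT array (adjusted p = 0.145) or the second WT array (adjusted p = 0.118, limma).

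*Klf3* encodes a repressor that is itself a target of KLF activators in other cell types. Its intensities were 912 and 904 in Rictor-null cells and 972 and 1005 in WT cells. The groups were narrowly apart and the difference did not pass (log2 fold change -0.12, 95% confidence interval -0.22 to -0.019, adjusted p = 0.0959 from limma). The 7 *Klf3* probe sets had no common direction, with 4 above 0 and 3 below 0, between -0.18 and 0.07. The brightest passed after quantile normalization (adjusted p = 0.0436 from limma).

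*Klf6*, an early growth-responsive factor, was the only gene of the 10 whose groups overlapped. It read 740.3 and 908 in Rictor-null cells and 933 and 898 in WT cells. The second Rictor-null array fell among the WT arrays, and the log2 fold change was -0.16 (95% confidence interval -0.32 to 0.0086, adjusted p = 0.194 from limma). A second *Klf6* probe set split the Rictor-null arrays in the same way, with 396 and 601 there, against 631 and 516 in WT cells. Without the second Rictor-null array the difference was -0.30 (adjusted p = 0.00192 from limma), and without the first it was -0.01. The other *Klf6* probe sets ran from -0.01 to 0.15.

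Among the BTG and TOB genes, *Btg1* was lower on all of its probe sets, whereas *Btg2* and *Tob1* did not pass. *Btg1* had intensities of 1799.6 and 1876 in Rictor-null cells, against 2265 and 2317 in WT cells. The groups were far apart, with Rictor-null cells 19.8% lower (log2 fold change -0.32, 95% confidence interval -0.41 to -0.22, adjusted p = 0.000208 from limma). A second probe set read 1602 and 1547 in Rictor-null cells and 1980.4 and 1916 in WT cells, a log2 fold change of -0.30 (adjusted p = 0.00157 from limma over all probe sets). The third showed the largest difference of the 3, at 736 and 720.5 in Rictor-null cells and 1148 and 1131 in WT cells (log2 fold change -0.63, adjusted p = 5.96e-05 from limma over all probe sets). *Btg1* lies on chromosome 10 at 96617001 to 96622813 in GRCm38.p6.

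*Btg2*, a close relative of *Btg1*, was at 1960.5 and 1889.9 in Rictor-null cells and at 2129.9 and 2003 in WT cells. The groups lay side by side without overlap and the difference did not pass (log2 fold change -0.10, 95% confidence interval -0.20 to -0.0018, adjusted p = 0.159 from limma), and its other probe set differed by -0.03. *Tob1*, whose product also binds the deadenylase, read 360.5 and 359 in Rictor-null cells and 368 and 393 in WT cells. The Rictor-null arrays lay just below the nearer WT array, with a log2 fold change of -0.08 (95% confidence interval -0.20 to 0.047, adjusted p = 0.423 from limma). The other *Tob1* probe set, below the median intensity, differed by -0.05 and did not pass.

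The start regions of 3 of these genes are shown because *Btg1* and *Btg2* belong to 1 family and only *Btg1* passed, and because *Klf2* rests on a single probe set. Each is the stretch of 250 bases that ends just before the annotated start, 5′ to 3′ on the gene's own strand, from RefSeq on GRCm38.p6. *Btg1* is on the plus strand of chromosome 10 (96616751 to 96617000), *Btg2* on the minus strand of chromosome 1 (134079156 to 134079405) and *Klf2* on the plus strand of chromosome 8 (72318812 to 72319061). The capitals mark the FOXO core TGTTTAC in *Btg1*, the cAMP response element TGACGTCA in *Btg2* and a match to the MEF2 motif in *Klf2*.
Btg1: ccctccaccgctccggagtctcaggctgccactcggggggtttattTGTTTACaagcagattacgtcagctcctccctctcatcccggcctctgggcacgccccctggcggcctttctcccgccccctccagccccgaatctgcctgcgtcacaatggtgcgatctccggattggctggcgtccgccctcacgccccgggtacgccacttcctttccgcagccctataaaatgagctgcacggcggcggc
Btg2: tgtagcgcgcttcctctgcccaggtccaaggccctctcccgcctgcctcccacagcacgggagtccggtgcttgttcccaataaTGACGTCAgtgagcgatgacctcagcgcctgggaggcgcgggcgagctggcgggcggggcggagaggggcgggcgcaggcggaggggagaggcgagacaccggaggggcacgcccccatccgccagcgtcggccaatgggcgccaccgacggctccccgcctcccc
Klf2: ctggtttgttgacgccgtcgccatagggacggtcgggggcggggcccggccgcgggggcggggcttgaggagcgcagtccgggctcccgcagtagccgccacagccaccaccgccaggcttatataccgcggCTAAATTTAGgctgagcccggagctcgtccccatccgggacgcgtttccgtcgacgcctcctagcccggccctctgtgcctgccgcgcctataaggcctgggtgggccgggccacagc
The search covered both strands of the 12 such windows of the 10 genes (*Foxp1* has 3) and of 32851 windows of all genes. The FOXO core was in 1 of the 12 windows, that of *Btg1* at bases 204 to 198 before the start, against 3.17% of all windows. The cAMP response element was in 1 of the 12 (*Btg2*, bases 166 to 159), against 1.55%, the MEF2 motif in 1 (*Klf2*, bases 118 to 109), against 1.69%, and the E-box CACGTG in 1 (*Klf6*), against 6.02%. The GC box GGGCGG was in 11 of the 12, against 32.7%, and CCAAT in 7 of the 12, against 33.8%. None of these FOXO core, cAMP response element, MEF2 and E-box matches overlapped another motif of the search. A match is a description of these letters and not of a bound site.

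Over the 10 genes the differences ran one way. All 10 log2 fold changes were below 0, with a median of -0.20, against a median of 0.0068 over all genes, of which 47% were below 0. The groups did not overlap for 9 of the 10, against 55.5% of all genes in either direction and 24.9% with every Rictor-null array below every WT array. All 10 genes were above the median intensity of the probe sets, and among the 10695 genes as bright as that, 11.4% were lower and 20.1% were higher by the test. Of their 38 probe sets, 11 were lower and 0 higher, against 4.63% and 6.38% of all probe sets, and 31 of the 38 were below 0. *Foxo1* alone differed by at least 1.5-fold. These are counts without a test of the set, since its genes were named with earlier results of these arrays known.

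The calls for *Foxo1*, *Foxp1* and *Btg1* held in all 4 fits that left out an array, whereas those for *Klf2* and *Klf13* did not. The count of lower genes was 3 without the first or without the second WT array, 5 without the second Rictor-null array and 6 without the first.

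Genes that FOXO factors are known to switch on, and receptors of naive cell homing, did not move one way. Of 19 measured, 4 were higher and 5 lower in Rictor-null cells (median log2 fold change -0.0063). Over all genes 12.5% were higher and 7.19% lower, and among those above the median intensity 20.1% and 11.4%. *Il7r*, which encodes the IL-7 receptor alpha chain and is a FOXO1 target in T cells, read 1484 and 1444 in Rictor-null cells and 1015 and 1008 in WT cells. Both Rictor-null arrays were far above both WT arrays (log2 fold change 0.53, adjusted p = 7.16e-06 from limma). *Bcl2l11*, encoding the death protein BIM, was also higher, at 938 and 961 in Rictor-null cells and 708 and 604 in WT cells (log2 fold change 0.53, adjusted p = 0.000105 from limma). The sestrin genes, whose products restrain mTORC1, split. *Sesn3* was lower, at 517 and 484 in Rictor-null cells and 791 and 726 in WT cells (log2 fold change -0.58, adjusted p = 2.27e-05 from limma), and *Sesn1* was higher, at 299.7 and 316 in Rictor-null cells and 242 and 237 in WT cells (log2 fold change 0.34, adjusted p = 0.00127 from limma). *S1pr1*, the egress receptor gene that KLF2 drives, read 452 and 589 in Rictor-null cells and 611 and 542 in WT cells. Its groups overlapped and it did not pass (log2 fold change -0.15, adjusted p = 0.336 from limma), and without the first Rictor-null array the sign turned (0.033), while without the second it was lower (-0.34, adjusted p = 0.00502 from limma). *Ccr7*, encoding a T zone homing receptor, was at 318 and 345 in Rictor-null cells and 296 and 289 in WT cells and did not pass either (log2 fold change 0.17, adjusted p = 0.0739 from limma). It passed as higher without the first Rictor-null array (0.22, adjusted p = 0.0428) or with dim genes left out (adjusted p = 0.0475), and was at 0.11 without the second Rictor-null array (adjusted p = 0.357, limma). The call for *Sesn1* was lost without the second WT array (adjusted p = 0.0566 from limma), and the list then had 2 higher and 2 lower genes, against 3 higher and 1 lower without the first WT array and 3 lower without the first Rictor-null array.

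Genes of the proteins that act on FOXO factors were likewise mixed, with 3 of 25 higher and 6 lower (median log2 fold change -0.010). Beside these counts, 12.5% of all genes were higher and 7.19% lower. The proteins include kinases, a phosphatase and the 14-3-3 adaptors that hold FOXO factors in the cytoplasm. *Pik3cg*, the catalytic PI3K gamma subunit gene upstream of AKT, was higher, at 270.2 and 249.6 in Rictor-null cells and 163 and 162 in WT cells (log2 fold change 0.63, adjusted p = 3.4e-05 from limma). *Sgk1*, which encodes a FOXO kinase activated by mTORC2, was higher as well, at 565 and 559 in Rictor-null cells and 431 and 422 in WT cells (log2 fold change 0.39, adjusted p = 0.000176 from limma). *Ppp2ca*, the phosphatase 2A catalytic subunit gene, was lower, at 1362 and 1483 in Rictor-null cells and 1659 and 1741 in WT cells. So was *Stk4*, encoding the kinase MST1, at 2339 and 2293 in Rictor-null cells and 2819 and 2596 in WT cells. Their log2 fold changes were -0.26 and -0.22 (adjusted p = 0.00308 and 0.00432 from limma). Without the first WT array both calls were lost (adjusted p = 0.0596 for *Ppp2ca* and 0.108 for *Stk4*) and 0 genes of the list were lower, and without the second *Ppp2ca* was lost (adjusted p = 0.117, limma) and 1 gene was lower. The lower count was 4 without the second Rictor-null array, and the higher count was 2 without any 1 of the 4 arrays.

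On the test the relatives of the 10 genes were lower or did not pass. Over all genes 7.19% were lower and 12.5% higher (11.4% and 20.1% of those above the median intensity). Of 11 other forkhead genes, 4 were lower and 0 higher (median log2 fold change -0.08), namely *Foxk1*, *Foxn2*, *Foxj3* and *Foxj2*, between -0.37 and -0.22. Their count was 2 without the second Rictor-null array, 0 without the first WT array and 1 without the second, so that none of these 4 calls held in every fit with an array left out. Of 12 other KLF genes, 2 were lower and 0 higher (median -0.07). *Klf4*, which encodes a factor known to restrain T cell proliferation, was at 87.0 and 91.8 in Rictor-null cells and 152 and 128 in WT cells (log2 fold change -0.56, adjusted p = 0.000494 from limma). *Klf10*, induced by TGF-beta, was at 135 and 114 in Rictor-null cells and 161 and 164 in WT cells (log2 fold change -0.35, adjusted p = 0.00769 from limma), and its call was lost without the second Rictor-null array (adjusted p = 0.0647), the first WT array (0.112) or the second (0.137, limma), which left 1 lower gene each time.

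Of 17 other BTG and TOB relatives and deadenylation factors, 6 were lower and 0 higher in Rictor-null cells (median log2 fold change -0.05). The shares over all genes were 7.19% lower and 12.5% higher. *Tob2*, the paralog of *Tob1*, read 440.0 and 438 in Rictor-null cells and 653 and 659 in WT cells. That gap was wide where *Tob1* itself did not pass (log2 fold change -0.56, adjusted p = 1.07e-05 from limma), though the suffix of this *Tob2* probe set marks probes that may cross-hybridise. *Pabpc1*, encoding the poly(A)-binding protein to which TOB proteins bind, was at 5513 and 5719 in Rictor-null cells and 7204 and 7160.5 in WT cells (log2 fold change -0.35, adjusted p = 3.56e-05 from limma). The deadenylase subunit genes *Cnot6* and *Cnot3* were lower by -0.26 and -0.23 on the log2 scale. The *Cnot3* call was lost without the second Rictor-null array (adjusted p = 0.0527), the first WT array (0.0869) or the second (0.157), and that of *Cnot6* without the first WT array (0.114, limma). The list had 3 lower genes without the second Rictor-null array or without the second WT array, and 2 without the first WT array.

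Among 17 other quiescence genes, 6 were lower and 2 higher in Rictor-null cells (median log2 fold change -0.06). The shares over all genes were 7.19% lower and 12.5% higher. Of these 6, 3 belong to the ZFP36 family, whose proteins bind AU-rich elements and hasten mRNA decay. *Zfp36l1* read 1636 and 1708 in Rictor-null cells, against 2575 and 2576 in WT cells (log2 fold change -0.62, adjusted p = 1.56e-06 from limma). *Zfp36l2* was at 1238 and 1532 in Rictor-null cells and 1905 and 1824 in WT cells (log2 fold change -0.43, adjusted p = 0.00127 from limma), and *Zfp36* at 386 and 339 in Rictor-null cells and 464 and 451 in WT cells (log2 fold change -0.32, adjusted p = 0.00312 from limma). All 3 had both Rictor-null arrays below both WT arrays, but the calls for *Zfp36l2* and *Zfp36* were lost without the first WT array (adjusted p = 0.106 for both) and without the second (adjusted p = 0.0784 and 0.0824, limma). *Ets1*, encoding a factor of resting lymphocytes, was lower too, at 1932 and 2104 in Rictor-null cells and 2717 and 2775 in WT cells (log2 fold change -0.44, adjusted p = 4.08e-05 from limma). Without the first or without the second WT array, 2 genes of the list were lower and 0 higher, and 1 was higher without the first Rictor-null array.

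Genes of the cell cycle moved the other way. Of 19 proliferation genes, 10 were higher and 2 lower in Rictor-null cells (median log2 fold change 0.29). The shares over all genes were 12.5% higher and 7.19% lower. The 19 genes had a summed intensity of 12951 to 13076 in Rictor-null cells and 10769 to 10914 in WT cells. *Cdk1*, the mitotic kinase gene, read 271 and 249 in Rictor-null cells and 125 and 130.1 in WT cells (log2 fold change 0.94, adjusted p = 2.42e-06 from limma). *Birc5*, *Ccnb2* and *Ccna2*, which encode survivin and mitotic cyclins, followed at 0.84, 0.69 and 0.66. Leaving out any 1 array gave 9 higher genes, and the count of lower ones was 0 without the first or without the second WT array and 1 without the second Rictor-null array.

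Several KLF, BTG and ZFP36 genes also respond within minutes to stimulation or to handling of cells, so a list of such immediate-early genes was set beside them. Of its 24 genes, 14 were lower and 3 higher in Rictor-null cells (median log2 fold change -0.25). The shares over all genes were 7.19% lower and 12.5% higher. The 24 genes summed to 17355 to 17401 in Rictor-null cells and 19678 to 19821 in WT cells. *Fos* read 1194 and 1227 in Rictor-null cells and 1951 and 1903 in WT cells (log2 fold change -0.66, adjusted p = 1.11e-06 from limma), and *Egr1* and *Egr2* were lower by -0.64 and -0.55 on the log2 scale. *Ier3* was higher, at 0.85. The list had 10 lower genes and 1 higher without the first or without the second WT array. The part of this shift in the lower levels of the 10 genes was not tested.

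**Figure D3:**
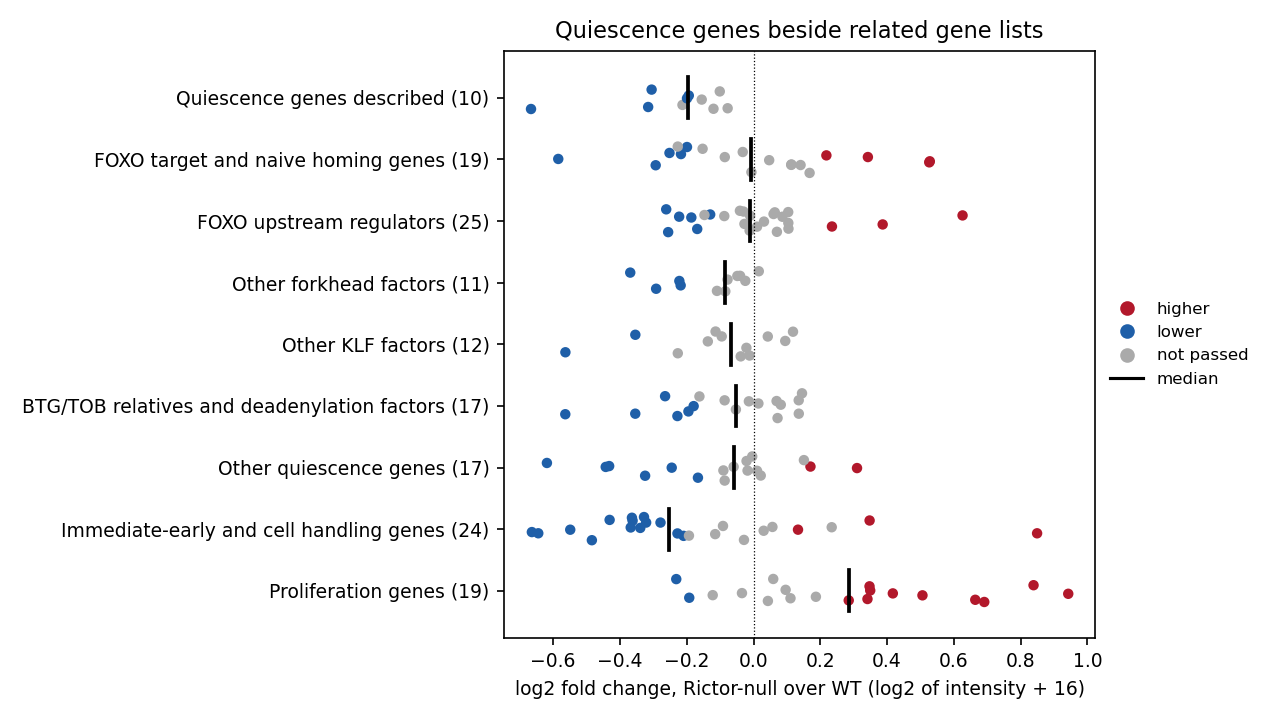
log2 fold change, Rictor-null over WT on the log2(intensity + 16) scale, of every gene of the set and of the lists beside it, with the number measured in parentheses. Red points are higher, blue points lower and grey points did not pass, and the vertical bar is the list's median, which is -0.20 for the 10 genes, 0.29 for proliferation genes and -0.25 for immediate-early genes.

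The genes whose profile over the 4 arrays was most like that of the member with the largest difference in each family were found by the smallest Euclidean distance between mean-centred log2 values. They were *Plekho1*, *Tubb2a* and *Nrip1* for *Foxo1* (distances 0.034 to 0.043), *Extl3*, *Rnpepl1* and *Plekha2* for *Klf13* (0.0094 to 0.016) and *Fam120c*, *Smg1* and *Csad* for *Btg1* (0.010 to 0.017). With 4 arrays in 2 groups, such a likeness follows mostly from a difference of similar size.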

How the data were processed

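RNA was sent to a company for labelling and hybridisation. MAS5 and RMA are the tools in the submitters' processing notes, with neither version nor role. The series table the authors deposited holds intensity values on a linear scale for 45037 probe sets, already scaled between arrays. By the platform annotation 34945 probe sets have 1 gene symbol, 932 several and 9160 none; only the first kind named a gene. RefSeq (GRCm38.p6) matched 34741 by Entrez number and changed 0 symbols. This gave 18193 genes, 9010 with several probe sets.

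Values became log2(intensity + 16). Rictor-null was set against WT in limma 3.58.1 under R 4.3.3, by lmFit and eBayes with trend, with Benjamini-Hochberg adjustment over all genes and a threshold of 0.05; probe sets were tested together in a fit of their own. Only the limma fit was tried on simulated data, with normal noise whose spread followed the mean signal. The fit assumes such a spread, so this trial cannot show how it performs on real pools. Replicate numbers are shared by the groups, but the labels do not say whether they pair samples, so no block was used. The first replicates' deviations from their group means correlated at -0.095 between groups across probe sets. With 2 arrays a group, the second replicates mirror the first and add no further pair. Named genes are the 10 members, *Rictor*, markers that passed, up to 4 genes per list with the smallest p and the 3 nearest genes. *S1pr1*, *Ccr7*, *Foxp3*, *Cd8a* and *Ncr1* were added after their values were seen. The members and all lists were chosen with earlier results of these data known. Alternatives were scaling, dim genes left out, the mean of all probe sets, no trend, a replicate block, each array left out, a pseudocount of 1, one adjustment over probe sets, linear ratios, the one-tailed test of the methods and, added after seeing the data, the members' second brightest probe set and the B cell markers without *Cd22*. Promoter windows came from RefSeq, which matched 10 of 10 members.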

Additional observations from a re-analysis of the deposited data

How the results depend on the processing

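No member was higher in Rictor-null than in WT cells under any alternative, and 5 members were lower in the setting of the report. Leaving out 1 array gave 3 to 6 lower members, and the lone array left in a group is then assumed to vary like the others. The same fits gave 2 to 10 lower member probe sets in place of 11 (7 without the first Rictor-null array), 930 to 2000 higher genes in place of 2283 and 457 to 1048 lower genes in place of 1308. The lowest counts came without a WT array. The one-tailed test of the methods was run with the tail in the direction seen for each gene. After Benjamini-Hochberg adjustment it called 0 members lower, with 3 genes higher and 4 lower over all. Unadjusted it called 6 members lower, with 3143 genes higher and 2232 lower over all. The mean of all probe sets called 842 genes lower and ended the calls for *Foxp1*, *Rictor*, *Sesn1*, *Ppp2ca*, *Stk4*, *Foxk1*, *Foxj2*, *Foxj3*, *Cnot6*, *Pabpc1* and *Zfp36l2*. With the replicate number as a block, 6 members were lower (*Foxo3* was added, adjusted p = 0.048 from limma), with 2366 genes higher and 1382 lower. The labels do not say whether that number pairs samples. Median centring gave 6 and quantile normalization 7 lower members. The members' second brightest probe sets, tried after the data were seen, gave 6 and turned the sign of *Klf3* (log2 fold change 0.070). Leaving out 1 array moved *S1pr1* between -0.34 and 0.033, the sign turning without the first Rictor-null array. Of 32 other named genes that passed, 12 lost the call without the first and 10 without the second WT array. These causes were not tested. The array's own background is not in the table, so dim values have no known floor.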
